A study of Mus musculus with 10 samples.

Results

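The numbered Zfp genes of the mouse are a large set named by symbol alone, most of which encode proteins with tandem C2H2 zinc fingers, small loops held by a zinc ion that read DNA bases. Genes were counted as members when the symbol was Zfp followed by digits only, Zfp36 excepted because its product is an RNA-binding CCCH protein, and when the mean input RNA level over the 5 input libraries was at least 5 TPM (a share of each library that is already divided by transcript length). Of 377 numbered Zfp genes listed, 151 met this rule and 226 lay below it. The same input filter kept 8971 genes in all, so the family was set beside 8820 other genes. Members were thus selected on measured input RNA, and input levels are given as a description.

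The study asked how Wdr4, which together with Mettl1 methylates guanosines in tRNA, affects translation efficiency, by sequencing ribosome-protected fragments (footprints) and poly(A)-selected input RNA. Monoclonal immortalised bone marrow-derived macrophages (iBMDM) were wild type (WT) or had received, by lentivirus and puromycin selection, 1 of 2 guides against Wdr4 (sgWdr4-1, sgWdr4-2). F4/80+ tumour-associated macrophages (TAM) were sorted from orthotopic Hepa1-6 liver tumours of Wdr4ff mice (ff) or of mice lacking Wdr4 in myeloid cells (cKO); the Cre driver, the age of the mice and the number pooled were not given in the sources used here. There were 10 libraries, 1 per condition and kind, so the 5 conditions have no replicates, and the 2 tables were normalised separately, so changes were taken within a table.

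Several facts of the libraries bear on every value below. Wdr4 input was 44.6 TPM in WT, 31.3 in sgWdr4-1, 44.5 in sgWdr4-2, 39.8 in ff and 20.9 in cKO, and its footprints were 13.3, 24.3, 26.9, 8.51 and 17.7 TPM. The footprints thus ran against the labels in both tables, and conditions are named as labelled. Of 15 macrophage markers, 12 lay below 1 TPM in every input library and Adgre1, the gene for the F4/80 antigen used for sorting, was listed at 0 in all 10 libraries. The macrophage list summed to 17.7 to 23.9 TPM of input, against 3578 to 5246 TPM for 10 fibroblast markers. Of the fibroblast markers, 4 lay below 1 TPM in every input, and Acta2 alone had 2397 to 3785 TPM. The summed hepatocyte list was 21.4 TPM in sgWdr4-1 and 26.5 in cKO, against 8.39 to 8.78 in the remaining inputs. Of its 10 genes, 9 lay below 1 TPM in every input, so the sum rests mainly on 1 gene. T cell, B cell, neutrophil and endothelial markers were almost all below 1 TPM. Mitochondrially encoded genes took 0.781% of footprint TPM in sgWdr4-1 and 9.94% to 14.6% in the other four footprint libraries. The part of these differences in the results was not tested.

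Many C2H2 proteins of this family carry a KRAB domain, which binds the corepressor Trim28. Trim28 in turn brings the histone methyltransferase Setdb1, HP1 proteins and deacetylase complexes to DNA, and this machinery is best known for silencing transposable elements and for guarding imprinted genes. Other members carry zinc fingers but act elsewhere, among them Zfp598, a ubiquitin ligase that marks collided ribosomes, Zfp622, which takes part in maturation of the large ribosomal subunit, and Zfp207, a spindle assembly protein.

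The family was present at low levels and had fewer footprints for its input RNA than other genes had. The median member had 12.5 TPM of input in WT, 12.9 in sgWdr4-1, 13.1 in sgWdr4-2, 12.8 in ff and 13.5 in cKO, where the median other gene had 32.2 to 34.9 TPM. Median footprints of the family were 5.48, 5.65, 5.03, 4.26 and 3.87 TPM in the same order, and those of other genes 18.4, 19.7, 17.1, 17.1 and 14.4 TPM. All 151 members together took up 0.294% to 0.302% of all input and 0.137% to 0.177% of all footprints, in TPM. In such bulk material a lower level in fewer cells and a lower level per cell cannot be told apart.

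Translation efficiency (TE) was taken in each condition as log2(footprint TPM + 1) minus log2(input TPM + 1), so that 0 marks equal shares of both kinds of library. The median TE of the family was −1.17 in WT, −0.96 in sgWdr4-1, −1.25 in sgWdr4-2, −1.16 in ff and −1.61 in cKO. For other genes the medians were −0.75, −0.61, −0.81, −0.84 and −1.19. The family lay below the other genes in each of the 5 conditions, by 0.32 to 0.45 log2 units (SD 0.055, n = 5 conditions), and the cKO footprint library was the lowest for both sets of genes. Averaged over the conditions, the median member had a TE of −1.20 (quartiles −1.83 and −0.46) and the median other gene −0.87, a difference of −0.33. The ranges overlapped widely, from −5.23 for Zfp664 to 1.72 for Zfp938 within the family.

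**Figure D1:**
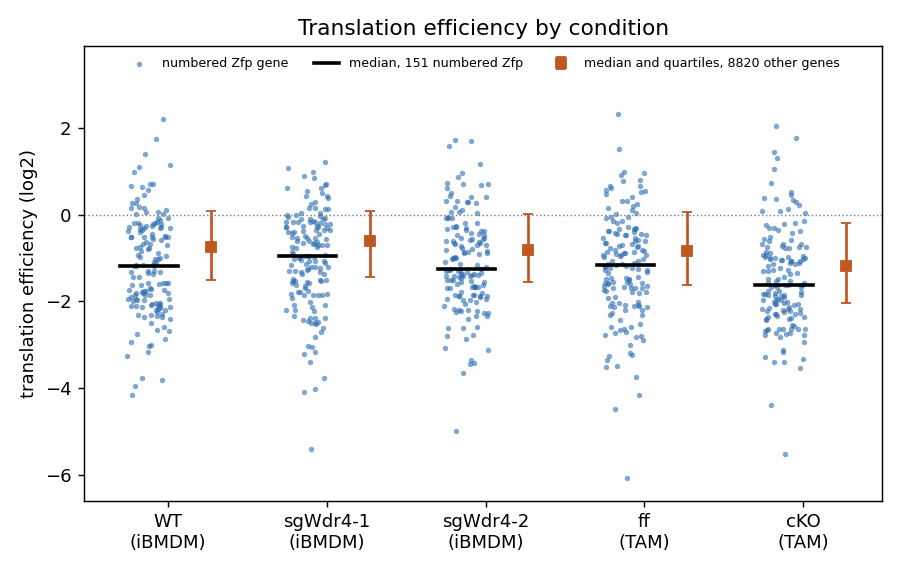
Translation efficiency (log2 of footprint over input TPM, pseudocount 1) of the 151 numbered Zfp genes in each condition, 1 blue point per gene with a black bar at the median, beside the median and quartiles of the 8820 other genes in orange. The black bar sits below the orange median in all 5 conditions, and most points of the family lie within the range of other genes.

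This difference depended on how many footprints a gene had to show. Among genes with mean footprints of at least 5 TPM as well, 77 members were left and their median TE lay 0.16 above that of other genes; this filter removes members by the very footprints that are compared. Without it, the family was below other genes within every band of mean input, by −0.18 for the 59 members of 5 to 10 TPM, −0.47 for 57 members of 10 to 20 TPM, −0.21 for 27 members of 20 to 50 TPM and −1.13 for the 8 members at 50 TPM or more. Input RNA below 20 TPM was seen for 116 members (76.8%) and for 33.6% of other genes. TPM values carry no read depth, so the sampling error of these low values is unknown.

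TE below 0 in all 5 conditions was found for 99 members (65.6%), where 56.7% of all genes tested were so placed. TE above 0 in all 5 conditions was found for 2 members (1.32%), Zfp809 and Zfp938, against 11.6% of all genes tested. By limma over the 5 conditions, with Benjamini-Hochberg adjustment over 8971 genes, 104 members (68.9%) had a TE below 0 and 4 (2.65%) a TE above 0, while 43 did not pass. The same test called 61% of all genes tested lower and 12.3% higher, so most of the lower share was common to the transcriptome. The share of higher calls was below that of all genes, but this was not particular to the family. Among other zinc finger genes, 0 of 26 BTB, 0 of 11 SCAN, 0 of 12 Kruppel-like and Sp and 1 of 19 CCCH genes were higher. With every library rescaled to the same median, so that TE is read against the median gene, 62 members (41.1%) were lower and 20 (13.2%) higher, against 28.3% and 31.6% of all genes. The conditions are not replicates of one group, and TE contains the input that chose the members. The comparison with other genes under the same filter takes account of that only in part. Input below 20 TPM was seen for 76.8% of members and 33.6% of other genes, so the 2 sets are not matched in input.

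Below the median gene in every condition were 55 members (36.4%, 27.4% of all genes), and above it 18 (11.9%, 28.5% of all genes). Mean footprints exceeded mean input for 17 members (11.3%) and for 24.5% of other genes, and mean footprints lay below 1 TPM for 11 members (7.28%) and for 1.25% of other genes. A footprint level of 0 in at least 1 library was listed for 5 members (3.31%, beside 1.08% of other genes), Zfp251, Zfp41, Zfp664, Zfp825 and Zfp931. Just inside the input threshold stood Zfp710 (5.01 TPM, mean TE −0.89), Zfp959 (5.02 TPM, −0.79) and Zfp113 (5.09 TPM, −0.63), and just outside it Zfp788 (4.9998 TPM, −0.27), Zfp971 (4.96 TPM, −1.34) and Zfp324 (4.91 TPM, 0.30).

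The 5 members with the most input RNA were Zfp207, Zfp706, Zfp91, Zfp740 and Zfp622. Zfp207, the spindle assembly protein, had 294, 284, 307, 313 and 265 TPM of input in WT, sgWdr4-1, sgWdr4-2, ff and cKO, the order kept from here on. Its footprints were 75.5, 234, 79.2, 46.3 and 38.4 TPM, so that the sgWdr4-1 library stood well above the other four while the inputs were close. Mean TE of Zfp207 was −1.93 (SE 0.31, limma adjusted p = 0.00012).

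Zfp706, which is known to restrain Klf4 in embryonic stem cells, went the other way. Its input was 206, 203, 213, 208 and 187 TPM and its footprints 228, 191, 349, 260 and 314 TPM, the highest footprint level in the family. Mean TE was 0.37 (SE 0.19, limma adjusted p = 0.098), and footprints were above input in 4 of 5 conditions. Read against the median gene, the mean TE of Zfp706 was 1.32 and passed the test (limma adjusted p = 0.00031).

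Zfp91, a ubiquitin ligase of the NF-kB pathway, had 100 to 107 TPM of input and footprints of 26.5, 17.9, 36.3, 19.8 and 30.9 TPM, with a mean TE of −1.97 (SE 0.21, limma adjusted p = 5e-06). Zfp622, the ribosomal subunit maturation factor, had 64.7 to 74.4 TPM of input. Its footprints of 30.1, 106, 22.6, 30.4 and 11.9 TPM were again highest in sgWdr4-1, the library with few mitochondrial footprints, and lowest in cKO. Footprints of the transcription factors Zfp143 (5.48, 14.1, 3.39, 1.98 and 2.64 TPM) and Zfp281 (1.53, 9.46, 2.70, 3.26 and 1.81 TPM) were likewise highest in sgWdr4-1; these 2 genes were chosen after their values were seen. Other abundant members went the opposite way, since footprints of Zfp706 and Zfp91 were lowest in sgWdr4-1. Of all members, 47 (31.1%) had their highest footprint level in that library and 35 (23.2%) their lowest, beside 40.6% and 27.7% of other genes. That sgWdr4-2 lay below the first guide in Zfp207, Zfp622, Zfp143 and Zfp281 follows from the first guide being highest there and adds no further result.

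**Figure D2:**
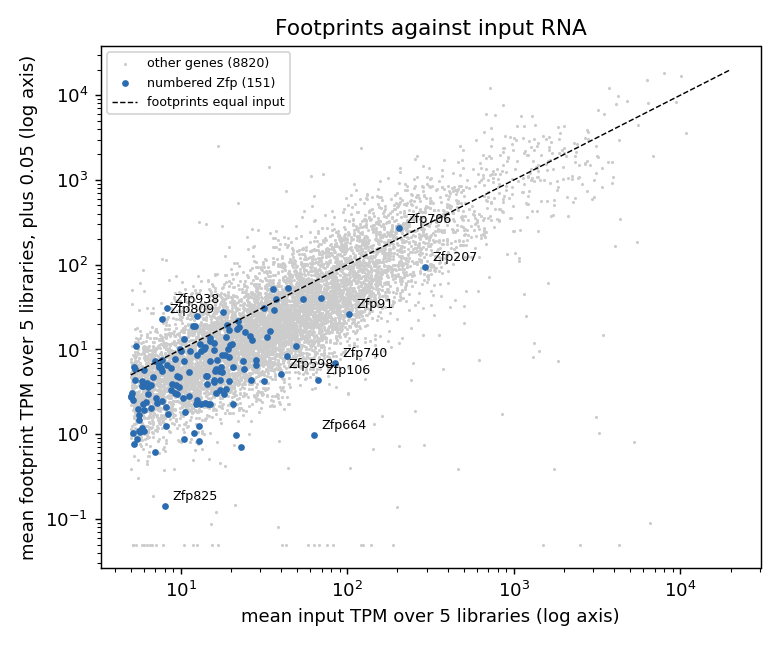
Mean footprint TPM (with 0.05 added so that zeros can be drawn) against mean input TPM over the 5 libraries of each kind, both on log axes, for 151 numbered Zfp genes in blue and 8820 other genes in grey; the dashed line marks equal levels. Zfp938, Zfp809 and Zfp706 lie above the line, and Zfp664, Zfp106, Zfp740 and Zfp598 far below it.

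Few members were rich in footprints. Zfp938 had only 9.28, 6.77, 8.38, 7.63 and 9.11 TPM of input but 33.7, 15.3, 29.4, 42.4 and 33.4 TPM of footprints. Footprints exceeded input in every condition, and the mean TE of 1.72 was the highest in the family (SE 0.23, limma adjusted p = 3.4e-05). Zfp809 recruits Trim28 to silence endogenous and infecting retroviruses. It had 8.38, 7.18, 7.19, 6.56 and 9.15 TPM of input and 42.4, 15.2, 23.8, 14.1 and 20.3 TPM of footprints, a mean TE of 1.37 (SE 0.25, limma adjusted p = 0.00031). Its WT footprint level was the highest of the 5, yet all 5 lay above input.

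Zfp967 had a mean TE of 0.84 (SE 0.30, limma adjusted p = 0.021) and Zfp771 one of 0.77 (SE 0.30, limma adjusted p = 0.034). Both varied: footprints of Zfp967 were 8.46, 5.79, 11.1, 10.9 and 18.9 TPM on 6.31, 6.63, 4.38, 5.85 and 3.83 TPM of input. Footprints of Zfp771 were 9.92, 18.8, 47.6, 17.7 and 30.2 TPM on 10.4 to 13.8 TPM of input, so its TE was below 0 in WT alone. With the cKO libraries left out, 2 members in place of 4 passed above 0. Zfp260 (mean TE 0.55) and the SUMO ligase Zfp451 (0.50) came next without passing (limma adjusted p = 0.097 and 0.091). Footprints of Zfp451 were 52.6 TPM in WT and 16.3 to 30.5 in the other conditions.

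The 6 members with the lowest mean TE had between 12.8 and 84.1 TPM of mean input. The rank left out members with mean footprints below 1 TPM, such as Zfp1006 (12.1 TPM of input, mean TE −2.74). This limit and the pseudocount keep members of low input from the lowest ranks, so nothing is drawn from the input of the 6. Zfp106, an RNA-binding protein needed by motor neurons and muscle, had 69.4, 59.4, 74.2, 70.3 and 61.2 TPM of input and 4.03, 2.53, 7.91, 2.99 and 4.36 TPM of footprints. Its mean TE was −3.74 (SE 0.23, limma adjusted p = 1e-07). Zfp740 had 77.8 to 90.5 TPM of input and footprints of 5.52, 9.05, 7.43, 6.39 and 6.42 TPM, a mean TE of −3.43 (SE 0.20, limma adjusted p = 7.7e-08).

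The collision sensor Zfp598 had 38.6 to 41.2 TPM of input, nearly level across the conditions, and 4.195, 2.91, 7.46, 5.46 and 5.66 TPM of footprints. Its mean TE was −2.78 (SE 0.23, limma adjusted p = 1e-06), and no condition came near equal shares. Zfp787, Zfp146 and Zfp672 followed at −2.76, −2.70 and −2.68. Below the footprint limit of this rank Zfp664, singled out after its values were seen, had 54.2 to 68.4 TPM of input and footprints of 2.90, 0.48, 1.10, 0 and 0.20 TPM. The mean TE of Zfp664, −5.23 (SE 0.28, limma adjusted p = 2.4e-08), was the lowest in the family and depends on the pseudocount.

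**Figure D3:**
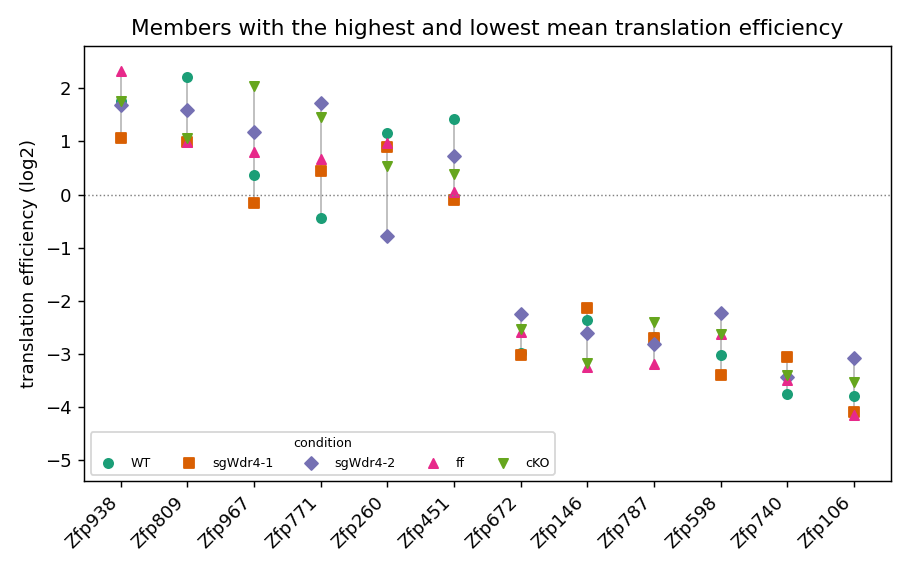
Translation efficiency (log2) of the 6 members with the highest and the 6 with the lowest mean among those with mean footprints of at least 1 TPM, 1 marker per condition and a grey line from lowest to highest. Zfp938 and Zfp809 stay above 0 in all 5 conditions, Zfp967, Zfp771, Zfp260 and Zfp451 cross it in 1 condition each, and the 6 low members stay below −2 throughout.

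TE varied across the conditions about as much in the family as elsewhere, with a median SD of 0.53 among members and 0.50 among other genes. Zfp148, a widely expressed transcription factor, was the steadiest, with a TE between −1.01 and −0.67 (SD 0.14) on 23.3 to 28.2 TPM of input. Zfp219 (SD 0.15), Zfp358 (SD 0.16) and Zfp655 (SD 0.20) were next. Of the members tied to imprinting, Zfp57 had a mean TE of −0.74 (SD 0.61), above the family median, and Zfp445 one of −1.13 (SD 0.72). Zfp410, which activates Chd4, stood at −1.21 (SD 0.34). These 3 genes were chosen after their values were seen.

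The largest SD of TE belonged to Zfp931 (1.501), Zfp523 (1.21), Zfp950 (1.20) and Zfp513 (1.14). Footprints of Zfp523, a paralog of Zfp143, were 5.54, 0.94, 3.77, 3.39 and 1.08 TPM, lowest in sgWdr4-1 and cKO, while its input was 6.42, 12.7, 8.65, 6.44 and 13.3 TPM, highest in those same 2 conditions. Footprints of Zfp931 were 7.63, 2.56, 10.4, 9.92 and 0 TPM, so its SD rests on the cKO library.

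Against WT, the family's median changes under both guides were small. Footprint changes had a median of 0.15 under sgWdr4-1 and 0.05 under sgWdr4-2 on the log2(TPM + 1) scale (other genes 0.07 and −0.04), and TE changes 0.08 and 0.04 (other genes −0.01 and −0.05). In TE, 7 members (4.64%) were at least 2-fold higher under both guides, where 1.1% of all genes were, and 1 (0.662%) was at least 2-fold lower, where 2.27% of all genes were. The 7 were Zfp866, Zfp414, Zfp609, Zfp932, Zfp53, Zfp65 and Zfp790, the last 2 with mean footprints below 1 TPM. Single guides spread more widely in TE: 23 members (15.2%) were past 2-fold higher and 13 (8.61%) past 2-fold lower under sgWdr4-1, where 13.8% of all genes were in each direction. Under sgWdr4-2 these were 12 (7.95%, 3.91% of all genes) and 9 (5.96%, 5.22% of all genes). Both guides are set against the same WT library, so a low WT footprint value raises both. The shares of all genes were not matched on footprint level, and median WT footprints were 5.48 TPM for members and 18.4 TPM for other genes. The part of low footprint levels in the 2-fold counts, here and in cKO, was not tested.

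Zfp866 had footprints of 1.74 TPM in WT, 5.21 in sgWdr4-1 and 8.27 in sgWdr4-2, with TE higher by 1.46 and 1.56. Zfp414 had 8.01, 22.8 and 33.3 TPM, with TE higher by 1.43 and 2.06. In both genes the WT value was also below ff and cKO, at 10.1 and 7.32 TPM for Zfp866 and 15.3 and 27.3 TPM for Zfp414. Zfp609, a transcriptional regulator of neural progenitors and myoblasts, had 1.99, 6.75 and 7.11 TPM in the iBMDM lines and 12.7 and 2.24 TPM in ff and cKO. TE of Zfp609 was thus higher by 1.34 and 1.36 under the guides and lower by 2.20 log2 units in cKO (−2.20). Zfp53 went from 0.65 to 3.22 and 2.41 TPM. In the other direction, Zfp961 had 29.5 TPM of footprints in WT, 10.995 in sgWdr4-1 and 13.7 in sgWdr4-2, a TE change of −1.34 and −1.35.

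In footprints alone, 5 members (Zfp866, Zfp414, Zfp609, Zfp53 and Zfp202) were at least 2-fold higher under both guides (0.97% of all genes) and 1, Zfp961, was lower (1.62% of all genes). Under sgWdr4-1 alone 22 members were higher and 16 lower (15.1% and 10.2% of all genes), and under sgWdr4-2 alone 9 and 8 (3.36% and 4.92% of all genes). By limma with 2 guide lines against 1 WT line, which has 1 residual degree of freedom and takes the lone WT line to vary like the guide lines, no member passed. At unadjusted p under 0.05 stood 6 members in TE, 6 in footprints and 2 in input. Over all 8971 genes the adjusted test called 6 in TE (0.0669%), 0 in footprints (0%) and 0 in input (0%), and 187 (2.08%), 137 (1.53%) and 80 genes (0.892%) lay at unadjusted p under 0.05. On simulated data this test recovered 3 of 100 genes changed 4-fold in TE or footprints and 0 of 100 changed 2-fold, and 77 of 100 changed 2-fold in input. The simulated noise had a single spread for all genes of like abundance, so the input figure may be too high. In the data, 3 genes were at least 2-fold lower and 3 higher in input under both guides, and none passed. A miss in TE, footprints or input thus says little.

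In the TAM table the family's TE was lower in cKO than in ff, as was that of other genes. The median change was −0.18 for members and −0.29 for other genes, with medians of −0.14 and −0.21 in footprints. TE was at least 2-fold lower for 32 members (21.2%, 17.1% of all genes) and at least 2-fold higher for 9 (5.96%, 3.82% of all genes). Footprints were at least 2-fold lower for 22 (14.6%, 8.8% of all genes) and higher for 8 (5.30%, 2.9% of all genes). With 1 library on each side there is no test of these changes. With libraries rescaled to the same median, the TE counts were 18 lower (11.9%, 10.02% of all genes) and 19 higher (12.6%, 8.97% of all genes), and the footprint counts 17 lower (11.3%, 5.92% of all genes) and 16 higher (10.6%, 5.85% of all genes). With the footprints of ff and cKO exchanged, TE was lower for 11 members (7.28%, 4.66% of all genes) and higher for 16 (10.6%, 6.03% of all genes).

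The largest rises in cKO were in genes with few footprints in ff. Zfp710 had 0.39 TPM in ff and 6.36 in cKO (TE change 2.49), Zfp524 0.39 and 4.02 TPM (2.07), and Zfp41 0 and 2.35 TPM (1.81). More footprints stood behind 2 others: Zfp639 had 5.24 TPM in ff and 12.6 in cKO (TE change 1.27) and Zfp384, a transcription factor known from leukaemia fusions, 5.69 and 13.2 TPM (1.15), both on 40.7 TPM of input or more. These 2 were chosen after their values were seen.

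The largest falls were Zfp931 (−3.16), Zfp513 (−2.94), Zfp407 (−2.61), Zfp609 (−2.20) and Zfp715 (−2.05). Zfp513, whose human counterpart is linked to retinal degeneration, had 11.3, 13.1 and 15.0 TPM of footprints in the iBMDM lines, 16.4 in ff and 2.30 in cKO, while input was 10.04 TPM in ff and 15.05 in cKO. Zfp407, a regulator of glucose uptake genes in adipocytes, had 8.41 TPM of footprints in ff and 0.74 in cKO, with 2.00 to 5.86 in the iBMDM lines. In Zfp513 the cKO library stands apart from the other four, whereas in Zfp407 the ff value is also the highest of the 5.

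**Figure D4:**
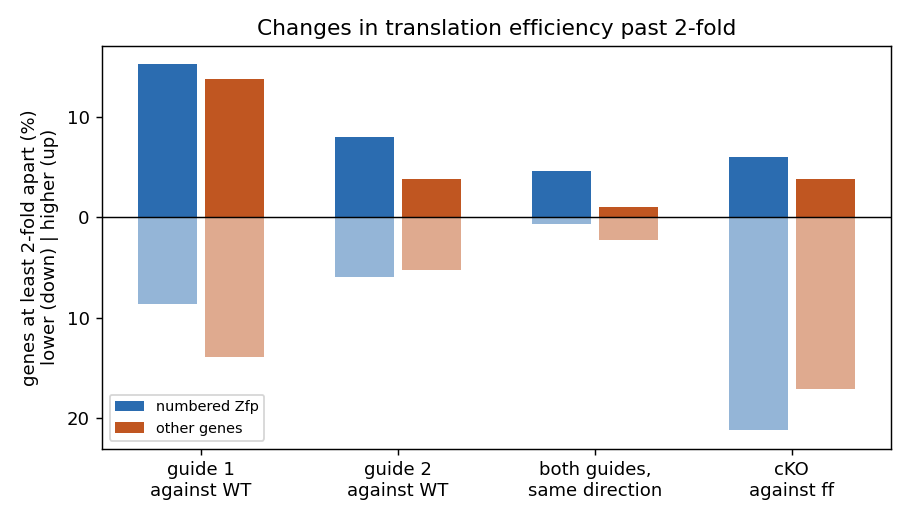
Share of the 151 numbered Zfp genes (blue) and of the 8820 other genes (orange) whose translation efficiency was at least 2-fold higher (bars up, %) or lower (pale bars down, %) in each comparison. Higher under both guides were 4.64% of members, and in cKO 21.2% of members were lower beside 17.1% of all genes tested.

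Input RNA of the family moved little. Median changes were −0.03 and −0.02 under the guides and 0.06 in cKO (other genes 0.09, 0.01 and 0.08), and no member was at least 2-fold higher or lower under both guides (0.0334% of all genes in each direction). No member was past 2-fold higher under sgWdr4-1 (0.379% of all genes) or in cKO (1.46% of all genes), and none was past it in either direction under sgWdr4-2 (0.0446% of all genes in each). A single member, Zfp950, was at least 2-fold lower under sgWdr4-1 (0.111% of all genes) and in cKO (0.145% of all genes). Input of Zfp950 was 34.9, 5.35, 23.5, 22.9 and 7.02 TPM. It was low in the same 2 conditions in which the summed hepatocyte list, resting mainly on 1 gene, was high. The fibroblast list was also highest in these 2 inputs, at 4226 TPM in sgWdr4-1 and 5246 in cKO against 3578 to 3649 TPM elsewhere. Most of that sum was Acta2, at 2834 TPM in sgWdr4-1 and 3785 in cKO against 2397 to 2483 TPM elsewhere. The part of either list in the result was not tested. The 2 guides differed widely for Zfp950, with log2 changes of −2.50 and −0.55. Its footprints did not follow, at 9.36, 8.23, 12.7, 20.6 and 19.002 TPM, and its TE was higher by 2.33, 0.95 and 1.47 in the 3 comparisons.

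Zfp932 behaved alike in TE. Its input was 21.5, 12.2, 16.7, 23.2 and 14.7 TPM and its footprints 5.21, 8.73, 10.9, 6.78 and 11.3 TPM, so that the WT and ff libraries had the most RNA and the fewest footprints. TE was higher by 1.42 under sgWdr4-1, 1.28 under sgWdr4-2 and 1.28 in cKO. No other member was past 2-fold higher both under the 2 guides and in cKO.

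Zfp950 and Zfp932 have alike sequences before their starts. A sequence from the RefSeq table (build GRCm38.p6) was at hand for 117 of the 151 members, and all 6786 pairs of the 250 bases before the start were aligned. The median pair had a score of 2, and 14 pairs reached 40. Of these, 13 joined 7 members: Zfp825, Zfp931, Zfp932, Zfp938, Zfp950, Zfp959 and Zfp967; the remaining pair was Zfp53 with Zfp948. Zfp931 and Zfp967 shared 193 of 206 aligned bases, Zfp932 and Zfp950 177 of 226, and Zfp950 and Zfp967 168 of 217. The 4 most alike are printed 5′ to 3′ on the gene's strand, chosen after the values of Zfp950 and Zfp932 were seen. Capitals mark the longest run of bases that all 4 hold. Zfp931 lies at chr2:178078426-178078675 on the minus strand, Zfp932 at chr5:109996260-109996509 on the plus strand (1 of 2 starts listed), Zfp950 at chr19:61140841-61141090 on the minus strand and Zfp967 at chr2:176520754-176521003 on the plus strand.
Zfp931: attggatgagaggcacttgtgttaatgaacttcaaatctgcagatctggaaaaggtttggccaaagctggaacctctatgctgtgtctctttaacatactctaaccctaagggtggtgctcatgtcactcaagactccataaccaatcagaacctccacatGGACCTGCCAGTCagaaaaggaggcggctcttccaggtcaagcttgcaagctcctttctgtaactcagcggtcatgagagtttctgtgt
Zfp932: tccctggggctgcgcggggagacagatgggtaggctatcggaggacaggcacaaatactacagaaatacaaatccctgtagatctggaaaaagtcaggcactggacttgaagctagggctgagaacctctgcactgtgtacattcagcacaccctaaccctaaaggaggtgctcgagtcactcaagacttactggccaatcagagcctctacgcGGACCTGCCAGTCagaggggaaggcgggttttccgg
Zfp950: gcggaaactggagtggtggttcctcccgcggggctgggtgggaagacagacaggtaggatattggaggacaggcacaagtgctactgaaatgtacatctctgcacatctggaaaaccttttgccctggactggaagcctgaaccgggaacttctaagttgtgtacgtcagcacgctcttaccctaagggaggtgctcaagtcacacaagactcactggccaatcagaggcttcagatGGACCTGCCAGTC
Zfp967: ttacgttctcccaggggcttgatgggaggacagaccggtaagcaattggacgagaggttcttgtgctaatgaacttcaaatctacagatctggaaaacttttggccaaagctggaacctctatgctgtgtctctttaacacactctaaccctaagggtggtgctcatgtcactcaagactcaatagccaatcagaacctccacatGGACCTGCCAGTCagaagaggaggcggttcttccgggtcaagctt

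The shared run, GGACCTGCCAGTC, has 13 bases and was found on either strand in 28 of 27025 upstream sequences of the table (0.104%), and among members in these 4 alone. It is a description of these letters and marks no binding site. Input RNA was lower than in the control for 4 of the 7 genes under sgWdr4-1, 5 under sgWdr4-2 and 5 in cKO. These counts include Zfp950 and Zfp932, whose values led to this group. Median input changes were −0.03, −0.02 and 0.06 for members and 0.09, 0.01 and 0.08 for other genes. Many genes were thus lower in each comparison, and no shared fall is drawn from the counts. After Zfp950 and Zfp932, the largest mean fall in input among members was that of Zfp825, with log2 changes of −0.16, −0.31 and −0.80. Input of Zfp967 changed by 0.06, −0.44 and −0.50, that of Zfp938 by −0.40, −0.13 and 0.23, that of Zfp931 by 0.12, 0.14 and −0.29 and that of Zfp959 by 0.23, 0.17 and 0.01. Zfp950 alone was past 2-fold. Their TE spanned nearly the whole family, from 1.72 for Zfp938 and 0.84 for Zfp967 to −0.97 for Zfp932 and −3.03 for Zfp825, which was listed at 0 footprints in 4 of 5 libraries. Such genes may share reads between copies; how reads with several matches were counted was not given in the sources used here, so values of these 7 genes are uncertain.

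**Figure D5:**
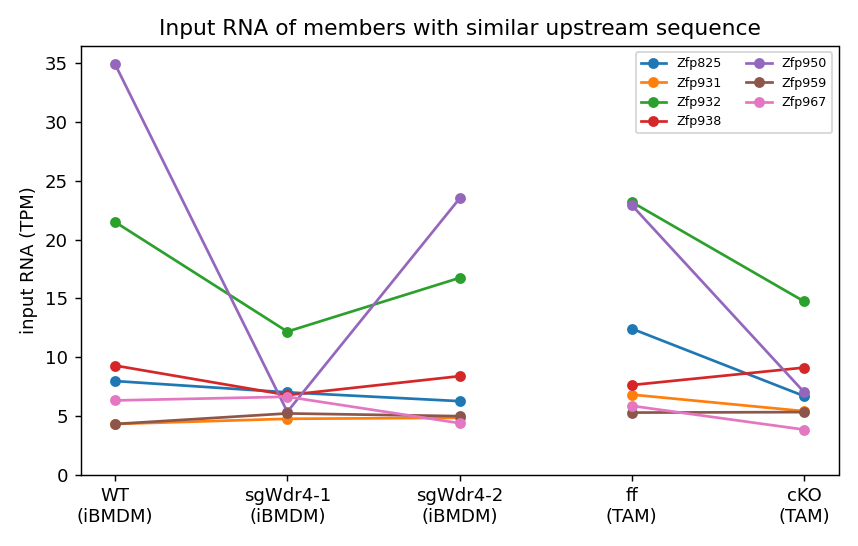
Input RNA (TPM, linear axis from 0) of the 7 members with alike upstream sequences in each condition, 1 line per gene, broken between the 2 tables. Zfp950 falls from 34.9 TPM in WT to 5.35 in sgWdr4-1 and from 22.9 in ff to 7.02 in cKO, Zfp932 lies between 12.2 and 23.2 TPM, and the other 5 stay below 13 TPM.

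Members that lie next to another numbered Zfp gene in the RefSeq order of protein-coding genes, as in the tandem clusters of KRAB genes, were compared with those that do not. The 62 members with such a neighbour had a median mean TE of −0.91 and the 88 without one −1.24, with 39 (62.9%) and 64 (72.7%) members below 0 by limma, beside 61% of all genes, and 2 above 0 in each set. Median input was 11.6 TPM with a neighbour and 14.8 TPM without, and median footprints were 5.14 and 5.49 TPM. One member, Zfp1006, matched no RefSeq entry.

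The partners through which KRAB proteins act were more abundant, with a median mean input of 102 TPM. Of 30 genes listed for this machinery 29 passed the input filter, with a median mean TE of −1.10. By limma 21 were below 0 and 1, Cbx5, above 0, where 61% and 12.3% of all genes tested were so called. Trim28, the corepressor itself, had 228, 220, 231, 219 and 189 TPM of input and 49.3, 163, 63.6, 46.4 and 34.6 TPM of footprints, highest in sgWdr4-1 as for Zfp207. Setdb1, the methyltransferase, had a mean TE of −2.38 (SD 0.45).

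The 3 HP1 genes differed most. Cbx3 had 233 to 282 TPM of input and only 5.35 to 9.27 TPM of footprints (mean TE −4.99, SD 0.20). Cbx1 stood at 0.33 (SD 0.34), and Cbx5 at 0.80 (SD 0.26), with 221 to 363 TPM of footprints on 149 to 175 TPM of input. Median TE changes of the list were 0.72 under sgWdr4-1, 0.34 under sgWdr4-2 and −0.42 in cKO. For the 8820 genes outside the numbered Zfp family they were −0.01, −0.05 and −0.29, not matched on input. Past 2-fold under both guides were Atf7ip, higher (1.07 and 1.03, 1.1% of all genes), and Morc3, lower (−1.25 and −1.05, 2.27% of all genes). In cKO 6 genes were lower and 3 higher (17.1% and 3.82% of all genes).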

How the data were processed

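The authors deposited 2 tables of TPM per gene symbol, 1 for 6 iBMDM libraries and 1 for 4 TAM libraries, with a footprint and an input column per condition. Per the submitters' processing notes, the tools included fastp 0.18.0 and Bowtie2; build, annotation, quantifier and treatment of reads with several matches were not given in the sources used here. Each column summed to about 1000000, so read depth is unknown and no counting interval can be given. Each table had 21956 rows and 21934 symbols; 20 symbols stood on 42 rows, of which the row with the highest mean was kept, and none was a numbered Zfp gene.

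A pseudocount of 1 TPM was added before log2. TE level was tested with limma 3.58.1 (R 4.3.3) as an intercept over 5 conditions, and guides against WT in a fit of 2 lines against 1, both with empirical Bayes trend, two-sided, Benjamini-Hochberg adjusted over all 8971 genes, threshold 0.05. Input and footprints were paired by line or condition because the labels name the same line for both; with 1 pair per condition, no correlation of deviations could be checked. Changes in single libraries were named by size, at least 2-fold. On data simulated for the TE level over 8971 genes, the fit recovered 43 of 100 genes with a 2-fold and 89 of 100 with a 4-fold difference, with 5 of 8771 others called. Named members were the 6 highest and 6 lowest in mean TE, the 5 highest in input, up to 5 per direction past 2-fold in each comparison, the 4 largest and 4 smallest SDs of TE, and those nearest the input threshold; TE ranks needed mean footprints of at least 1 TPM. Members and lists were chosen with earlier results of these data known. Upstream sequences were aligned locally with Biopython 1.88. With a sequence for 77.5% of members, a family-wide check of promoter composition was void, and protein features were not analysed here. RefSeq names matched 150 members. Alternatives covered pseudocount, filters, scaling, conditions left out, trend and pairing.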

Additional observations from a re-analysis of the deposited data

Results flagged for a closer look

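Several changes went one way under both guides and the other way in cKO; the differences between the 2 systems were not tested, each side of the TAM table being 1 library. The family's median change, as the mean of the guides minus cKO, was −0.084 in input, 0.24 in footprints and 0.24 in TE. This was not particular to the family. Median TE changes of other genes were −0.01 and −0.05 under the guides and −0.29 in cKO. Their median footprint changes were 0.07, −0.04 and −0.21 in the same order. In single members the same difference in TE was 3.55 for Zfp609, 3.18 for Zfp513 and 1.74 for Zfp866, which were higher under the guides and lower in cKO, and −2.88 for Zfp710 and −2.49 for Zfp524, which were lower under the guides and higher in cKO. The guide changes of Zfp513 (0.002 and 0.47), Zfp710 (−0.07 and −0.72) and Zfp524 (−0.38 and −0.46) and the cKO change of Zfp866 (−0.23) were below 2-fold, so only Zfp609 was past 2-fold on both sides.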

How the results depend on the processing

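Of the 110 values recomputed under alternatives, 62 stayed within the limits set for calling them unchanged, 47 moved and 1 reversed; where they moved, the cause was not tested beyond fewer genes or samples entering. The reversal was the family's median TE against other genes, −0.33 as reported and 0.16 with mean footprints of at least 5 TPM (77 members). It was −0.48 at a mean input of at least 10 TPM (92 members), −0.18, −0.47, −0.21 and −1.13 within the input bands, and −0.34 to −0.26 with 1 condition left out. Members below 0 by limma, 104 of 151 as reported, numbered 64 of 92 at input of at least 10 TPM and 33 of 77 with the footprint filter. They numbered 62 of 151 after rescaling to the same median (28.3% of all genes) and 96 to 108 with 1 condition left out. Members above 0, 4 as reported, numbered 1, 4 (footprint filter), 20 (31.6% of all genes) and 2 to 6 in the same order, and 2 in the iBMDM conditions alone. Where no share of all genes is given for a setting, a count describes only its dependence on that setting.

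Under both guides, TE was lower for 1 member (2 with a pseudocount of 0.5 TPM; 9 to 13 with either guide alone) and higher for 7 (11 with that pseudocount; 3 with the input filter; 4 with the footprint filter; 11 after median rescaling; 12 to 23 with either guide alone). Footprints were lower for 1 (2 with that pseudocount; 0 after median rescaling; 8 to 16) and higher for 5 (10; 2 with the input filter; 3 with the footprint filter; 8 after median rescaling; 9 to 22). In cKO, TE was lower for 32 (14 with the input filter; 19 with the footprint filter; 18 after median rescaling; 11 with the footprints of ff and cKO exchanged, an alternative added after the data were seen) and higher for 9 (5, 5, 19 and 16 in that order, and 16 without mitochondrial, ribosomal protein and histone genes). Footprints in cKO were lower for 22 (10 with the input filter) and higher for 8 (4; 3 with the footprint filter; 16 after median rescaling). With no replicate block, that is without the pairing of input and footprints by line, limma called 0 members in TE for guides against WT, as with it. For input, limma called 0 members as reported and 1, Zfp950, after median rescaling; its guides stood at −2.50 and −0.55, and input also chose the members, so nothing is drawn from that call. The input filter left 92 members and the footprint filter 77. Counts in this paragraph whose share of all genes is not given further up describe only the dependence on the setting. Depth limits all low values, and its size is unknown from TPM.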

Other observations

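Other zinc finger families of these libraries, under the same input filter, had median TE levels on both sides of the family's −1.20. The limma counts of each family are to be read beside the share of all genes tested, 61% below 0 and 12.3% above 0. Of 40 BTB zinc finger genes 26 were measured, with a median mean TE of −1.26, 19 below 0 and 0 above 0 by limma; Zbtb7b, a regulator of helper T cell fate, stood at −2.99 (SD 0.36) and Zbtb20 at 0.15 (SD 0.37). Of 21 SCAN genes 11 were measured, with a median of −1.23, 9 below 0 and 0 above 0. Zkscan5 was past 2-fold lower in TE in each comparison, by −1.71 and −1.04 under the guides and −1.80 in cKO. The 12 measured of 26 Kruppel-like and Sp factors had a median of −0.78, with 10 below 0 and 0 above 0. Their median TE change in cKO was −0.80, beside −0.29 for the 8820 genes outside the numbered Zfp family. Klf3 had footprints of 25.6 TPM in ff and 8.73 in cKO (TE change −1.78), on 30.2 and 38.1 TPM of input.

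The CCCH genes, many of whose products bind or cut mRNA, had the lowest median, −1.46 for 19 measured of 22, with 15 below 0 and 1 above 0. That 1 was Zfp36l1, which promotes decay of AU-rich mRNA. Its footprints were 37.4, 14.8, 16.1, 44.5 and 14.9 TPM in WT, sgWdr4-1, sgWdr4-2, ff and cKO, on 10.02, 14.1, 10.5, 10.9 and 17.2 TPM of input. Both control libraries were thus above all libraries labelled as targeted, and TE changed by −1.74, −1.23 and −2.13. Its relative Zfp36l2 did not share this, with TE changes of −0.07, 0.84 and 0.63. The 2-fold background of these comparisons stands in the report, and genes were picked from the lists after their values were seen.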
